A study of Mus musculus with 24 samples.

Results

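The 10 genes Dpy19l3, Parp8, Rab8b, Dgkb, Rassf8, Cass4, Prkab2, Sos1, Dopey2 and A330102I10Rik had higher read counts in the dentate gyrus of APP/PS1 mice given BCI-838 than in APP/PS1 mice without it. They were chosen by that difference: each was picked as higher in the mean of the 2 BCI-838 groups than in the mean of the 2 APP/PS1 groups without the drug. They are 10 of 26667 genes in the count table, and all 10 were among the 18286 that passed the filter on low counts. The values of the drug comparison are therefore given as a description, with no test. Tests are given for comparisons that the choice did not use, which are the interaction of drug and wheel, the wheel, and the genotype.

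The libraries were RNA-seq of the hippocampal dentate gyrus, where adult mice keep adding granule neurons. There were 5 libraries of APP/PS1 mice given both BCI-838 and a running wheel, 4 of APP/PS1 mice given BCI-838 alone, 5 of APP/PS1 mice given the wheel alone, 5 of APP/PS1 control mice with neither, and 5 of wild-type (WT) C57BL6/J mice. The daily oral dose of BCI-838 was 5 mg/kg over 1 month, wheels were open to the mice for 1 month, and the design sets the drug against vehicle. The design gives 5 mice a group, so 1 mouse of the BCI-838 group was not analysed here. APP/PS1 mice carry transgenes that produce amyloid plaques, and all 4 treatment groups share them; the labels do not give the promoters, the sex or the age. WT mice had neither treatment, so there is no WT group with the drug.

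BCI-838 is an orally active prodrug whose product blocks mGluR2 and mGluR3, metabotropic glutamate receptors that Grm2 and Grm3 encode. These receptors couple to inhibitory G proteins, lower cyclic AMP and, at nerve terminals, restrain glutamate release. The genes described here belong to several signalling and transport systems. Sos1 loads Ras with GTP downstream of growth factor receptors, and Dgkb, the neuronal diacylglycerol kinase beta, turns the second messenger diacylglycerol into phosphatidic acid. Prkab2 is the beta 2 subunit of AMPK, the kinase that responds to falling cellular energy. Rab8b is a small GTPase of vesicle traffic to the cell surface, and Dopey2 (Dop1b in the annotation) works with Mon2 in traffic between endosomes and the Golgi. Cass4 is a Cas-family scaffold of focal adhesions, and Rassf8 carries a Ras-association domain and acts at cell junctions. Dpy19l3 attaches mannose to tryptophan in thrombospondin-type repeats, Parp8 belongs to the ADP-ribosyltransferases, and A330102I10Rik is annotated as a long intergenic non-coding RNA.

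Library totals lay between 48656360 and 64632882 counts. Levels are in CPM, a count relative to the TMM-adjusted total of its library; ± is the SD after a CPM mean and the SE after a log2 difference, and a gene is called at an adjusted p under 0.05. App and Prnp, the 2 genes called in APP/PS1 mice against WT, were higher in every APP/PS1 group, where App ranged from 2467 to 4054 CPM against 1452 to 2073 CPM in WT. The defining granule cell markers Prox1 and C1ql2 were present in every library, but WT replicate 3 stood apart with 14.3 CPM of each. Control replicate 3 was next lowest for both, at 37.0 CPM of Prox1 and 83.7 CPM of C1ql2. The choroid plexus marker Ttr exceeded 100 CPM in 4 libraries, at 297 CPM in replicate 5 of the combined group and at 425, 1615 and 1269 CPM in control replicates 2, 4 and 5. Summed over 12 dorsal midbrain markers, the 4 BCI-838 libraries held 49.96 to 103 CPM, with 3.29 to 39.9 CPM in the combined group, 4.88 to 108 CPM with the wheel, 5.61 to 77.9 CPM in controls and 6.23 to 95.7 CPM in WT. No 2 libraries of a group agreed within sampling noise, and p-values measure the spread between libraries of separate mice.

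Promoter windows from RefSeq (assembly GRCm38.p6), running from 250 bases before to 50 bases after the start site, were held for 8 of the 10 genes. Rab8b and Prkab2 are printed because their levels moved together most closely from mouse to mouse, and Cass4 because its level across groups differed from the others. Capitals mark the GC box, GGGCGG on either strand.
Rab8b, chr9:66919656-66919955, minus strand: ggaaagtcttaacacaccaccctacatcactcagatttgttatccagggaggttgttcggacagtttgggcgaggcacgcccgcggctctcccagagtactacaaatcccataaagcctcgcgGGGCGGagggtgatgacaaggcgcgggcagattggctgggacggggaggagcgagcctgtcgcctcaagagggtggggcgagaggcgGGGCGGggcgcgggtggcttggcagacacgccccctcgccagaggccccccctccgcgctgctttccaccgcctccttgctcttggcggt
Prkab2, chr3:97657962-97658261, plus strand: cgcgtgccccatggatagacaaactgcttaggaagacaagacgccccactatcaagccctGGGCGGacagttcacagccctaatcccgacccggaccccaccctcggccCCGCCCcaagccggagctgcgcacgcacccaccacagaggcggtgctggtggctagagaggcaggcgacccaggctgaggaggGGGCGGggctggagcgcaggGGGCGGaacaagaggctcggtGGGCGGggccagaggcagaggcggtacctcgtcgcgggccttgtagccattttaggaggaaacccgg
Cass4, chr2:172393394-172393693, plus strand: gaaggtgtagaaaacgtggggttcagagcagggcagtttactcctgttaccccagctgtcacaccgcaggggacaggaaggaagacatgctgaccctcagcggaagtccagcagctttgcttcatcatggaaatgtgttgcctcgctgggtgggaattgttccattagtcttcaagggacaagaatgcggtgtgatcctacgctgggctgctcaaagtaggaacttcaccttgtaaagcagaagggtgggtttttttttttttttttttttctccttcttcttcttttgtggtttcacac
The Rab8b window held 2 GC boxes and 24 CpG dinucleotides, and the Prkab2 window held 5 GC boxes and 23 CpG dinucleotides. The Cass4 window held no GC box and 6 CpG dinucleotides. A GC box was also found in the windows of Dpy19l3, Parp8 and Dopey2, and 35.7% of all 32851 windows hold it. The full cyclic AMP response element, TGACGTCA on either strand, was in no window of these genes and is in 1.79% of all windows. These matches describe the letters of the windows only.

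Sos1 had 83.7, 84.3, 93.9, 85.0 and 82.9 CPM in the 5 combined libraries and 82.2, 85.9, 96.9 and 88.2 CPM in the 4 BCI-838 libraries. It had 62.4, 67.3, 74.4, 86.2 and 64.7 CPM with the wheel alone, 64.0, 73.0, 78.3, 68.4 and 76.9 CPM in controls and 80.1, 72.1, 77.9, 78.3 and 80.3 CPM in WT. Replicate 4 of the wheel group, at 86.2 CPM, lay among the drug libraries. The other 9 APP/PS1 libraries without drug lay below all 9 with it, which the choice of the gene favours. All 9 drug libraries, on which Sos1 was chosen, lay above all 5 WT libraries, and the share of all genes that do so was not taken. The mean of the drug groups lay 0.16 ± 0.07 above WT on the log2 scale (SE). The means were 86.0 ± 4.52 CPM in the combined group, 88.3 ± 6.22 CPM with BCI-838, 71.0 ± 9.65 CPM with the wheel, 72.1 ± 5.95 CPM in controls and 77.7 ± 3.34 CPM in WT (SD, n = 5, 4, 5, 5 and 5). The drug difference over both wheel states was 0.28 ± 0.06 on the log2 scale (SE), a fold of 1.22 and, with Dopey2, among the smallest of the 10.

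Dgkb had 274, 125, 269.8, 161 and 189 CPM in the combined libraries and 174, 184, 165 and 150.2 CPM in the BCI-838 libraries. It had 80.5, 81.7, 139, 117 and 122 CPM with the wheel, 102, 117, 96.5, 109 and 152 CPM in controls and 87.1, 136, 146, 153 and 137 CPM in WT. The combined group was the most spread, with replicates 1 and 3 highest and replicate 2 at 125 CPM, inside the range of the libraries without drug. The means were 204 ± 66.1 CPM in the combined group, 168 ± 14.5 CPM with BCI-838, 108 ± 26.0 CPM with the wheel, 115 ± 21.8 CPM in controls and 132 ± 26.0 CPM in WT. The log2 drug difference was 0.73 ± 0.15.

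Prkab2 had 63.8, 44.3, 55.0, 51.2 and 51.9 CPM in the combined libraries and 47.6, 52.0, 58.9 and 47.9 CPM in the BCI-838 libraries. It had 30.2, 30.9, 40.0, 42.8 and 40.6 CPM with the wheel, 37.9, 35.5, 46.5, 33.7 and 41.4 CPM in controls and 36.9, 36.4, 55.6, 41.6 and 40.2 CPM in WT. In both wheel states every drug library lay above every APP/PS1 library without the drug, which the choice of the gene favours. Of all genes, 2.51% were so separated in sedentary and 0.536% in running mice. Across the states, control replicate 3 at 46.5 CPM lay above combined replicate 2 at 44.3 CPM. WT replicate 3, the library lowest in granule markers, had the highest WT level. The log2 drug difference was 0.47 ± 0.09, with means of 53.2 ± 7.07 CPM in the combined group, 51.6 ± 5.25 CPM with BCI-838, 36.9 ± 5.90 CPM with the wheel, 39.0 ± 5.11 CPM in controls and 42.1 ± 7.86 CPM in WT.

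Rab8b had 84.1, 57.6, 89.1, 84.7 and 88.3 CPM in the combined libraries and 76.8, 85.2, 93.6 and 71.9 CPM in the BCI-838 libraries. It had 47.9, 48.8, 63.1, 64.9 and 59.8 CPM with the wheel, 57.9, 54.0, 67.9, 42.1 and 62.4 CPM in controls and 61.7, 56.0, 76.8, 62.7 and 58.1 CPM in WT. Combined replicate 2, at 57.6 CPM, was the only drug library not above all 10 APP/PS1 libraries without drug, a count that the choice favours. The means were 80.8 ± 13.1 CPM in the combined group and 81.9 ± 9.57 CPM with BCI-838, against 56.9 ± 8.02 CPM with the wheel, 56.8 ± 9.73 CPM in controls and 63.1 ± 8.14 CPM in WT. The log2 drug difference was 0.52 ± 0.10.

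Dopey2 had 132, 114, 141, 121 and 142 CPM in the combined libraries and 119.8, 132, 129.5 and 133 CPM in the BCI-838 libraries. It had 96.7, 91.2, 109, 106 and 115 CPM with the wheel, 112, 106, 123, 103 and 116 CPM in controls and 125, 121, 126, 127 and 109.7 CPM in WT. WT lay close to the drug groups for this gene: the means were 130.2 ± 12.4 CPM in the combined group, 129 ± 6.10 CPM with BCI-838, 103 ± 9.50 CPM with the wheel, 112 ± 8.22 CPM in controls and 122 ± 7.08 CPM in WT. The log2 drug difference was 0.27 ± 0.05. Of its exon bases, 4.48% overlap the antisense gene 2310043M15Rik, and whether counting used strand is not given in the sources used here.

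Cass4 was the least abundant of the 10, with 34 to 190 counts per library. It had 3.15, 1.39, 3.35, 2.37 and 1.42 CPM in the combined libraries and 3.16, 3.26, 2.68 and 2.61 CPM in the BCI-838 libraries. It had 1.26, 1.52, 1.61, 1.52 and 1.47 CPM with the wheel, 1.77, 1.52, 1.44, 1.16 and 0.896 CPM in controls and 0.969, 0.656, 0.793, 1.24 and 0.772 CPM in WT. Combined replicates 2 and 5 lay within the range of the libraries without drug, and all 4 BCI-838 libraries lay above every library without it. The choice of Cass4 favours this, and the share of all genes so separated was not taken, so nothing is read from it. The means were 2.34 ± 0.924 CPM in the combined group, 2.93 ± 0.330 CPM with BCI-838, 1.48 ± 0.131 CPM with the wheel, 1.36 ± 0.336 CPM in controls and 0.887 ± 0.229 CPM in WT, and the log2 drug difference was 0.88 ± 0.17. Because 21.2% of its exon bases overlap the antisense gene Gm14455, reads of the pair cannot be told apart with certainty.

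Rassf8 had 12.5, 10.1, 26.7, 15.01 and 8.12 CPM in the combined libraries and 15.2, 18.9, 23.9 and 22.5 CPM in the BCI-838 libraries. It had 7.29, 8.03, 10.3, 10.999 and 6.55 CPM with the wheel, 9.79, 9.86, 8.79, 11.2 and 7.52 CPM in controls and 11.8, 10.2, 6.26, 9.99 and 10.4 CPM in WT. Combined replicate 3 held the highest level and combined replicate 5, at 8.12 CPM, lay below the median of the libraries without drug. The means were 14.5 ± 7.29 CPM in the combined group, 20.1 ± 3.90 CPM with BCI-838, 8.63 ± 1.93 CPM with the wheel, 9.43 ± 1.36 CPM in controls and 9.74 ± 2.06 CPM in WT. Its log2 drug difference, 0.92 ± 0.18, was the largest of the 10.

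Dpy19l3 had 97.0, 59.7, 106, 93.4 and 93.0 CPM in the combined libraries and 64.0, 97.4, 81.2 and 66.2 CPM in the BCI-838 libraries. It had 45.9, 49.4, 60.5, 54.8 and 53.4 CPM with the wheel, 55.3, 59.6, 71.4, 57.4 and 64.8 CPM in controls and 57.7, 73.1, 55.1, 61.7 and 59.6 CPM in WT. In the combined group 4 of 5 libraries lay above every library with the wheel alone, while 2 of 4 BCI-838 libraries lay above every control. Such counts are favoured by the choice of the gene. The means were 89.9 ± 17.7 CPM in the combined group, 77.2 ± 15.5 CPM with BCI-838, 52.8 ± 5.51 CPM with the wheel, 61.7 ± 6.46 CPM in controls and 61.4 ± 6.95 CPM in WT, with a log2 drug difference of 0.55 ± 0.10.

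Parp8 had 43.5, 27.4, 37.7, 33.8 and 43.8 CPM in the combined libraries and 37.1, 33.8, 32.7 and 30.9 CPM in the BCI-838 libraries. It had 20.8, 27.2, 24.8, 28.2 and 25.3 CPM with the wheel, 24.6, 19.6, 21.9, 29.0 and 28.6 CPM in controls and 26.3, 27.3, 32.1, 28.5 and 28.0 CPM in WT. Combined replicate 2 was again the only drug library not above all APP/PS1 libraries without drug, a count that the choice favours. The means were 37.2 ± 6.92 CPM in the combined group, 33.6 ± 2.59 CPM with BCI-838, 25.3 ± 2.84 CPM with the wheel, 24.7 ± 4.12 CPM in controls and 28.4 ± 2.23 CPM in WT, and the log2 drug difference was 0.50 ± 0.09.

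A330102I10Rik had 10.5, 8.60, 12.2, 9.69 and 7.83 CPM in the combined libraries and 11.1, 11.5, 10.9 and 14.6 CPM in the BCI-838 libraries. It had 6.19, 7.75, 7.19, 8.56 and 7.05 CPM with the wheel, 7.52, 8.01, 7.55, 9.35 and 6.03 CPM in controls and 10.5, 7.51, 6.90, 8.80 and 8.86 CPM in WT. All 4 BCI-838 libraries lay above all controls, which the choice favours and which held for 2.51% of all genes. The combined group overlapped the wheel group through replicate 5. The means were 9.76 ± 1.70 CPM in the combined group, 12.0 ± 1.72 CPM with BCI-838, 7.35 ± 0.880 CPM with the wheel, 7.69 ± 1.19 CPM in controls and 8.51 ± 1.39 CPM in WT, and the log2 drug difference was 0.53 ± 0.10.

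**Figure D1:**
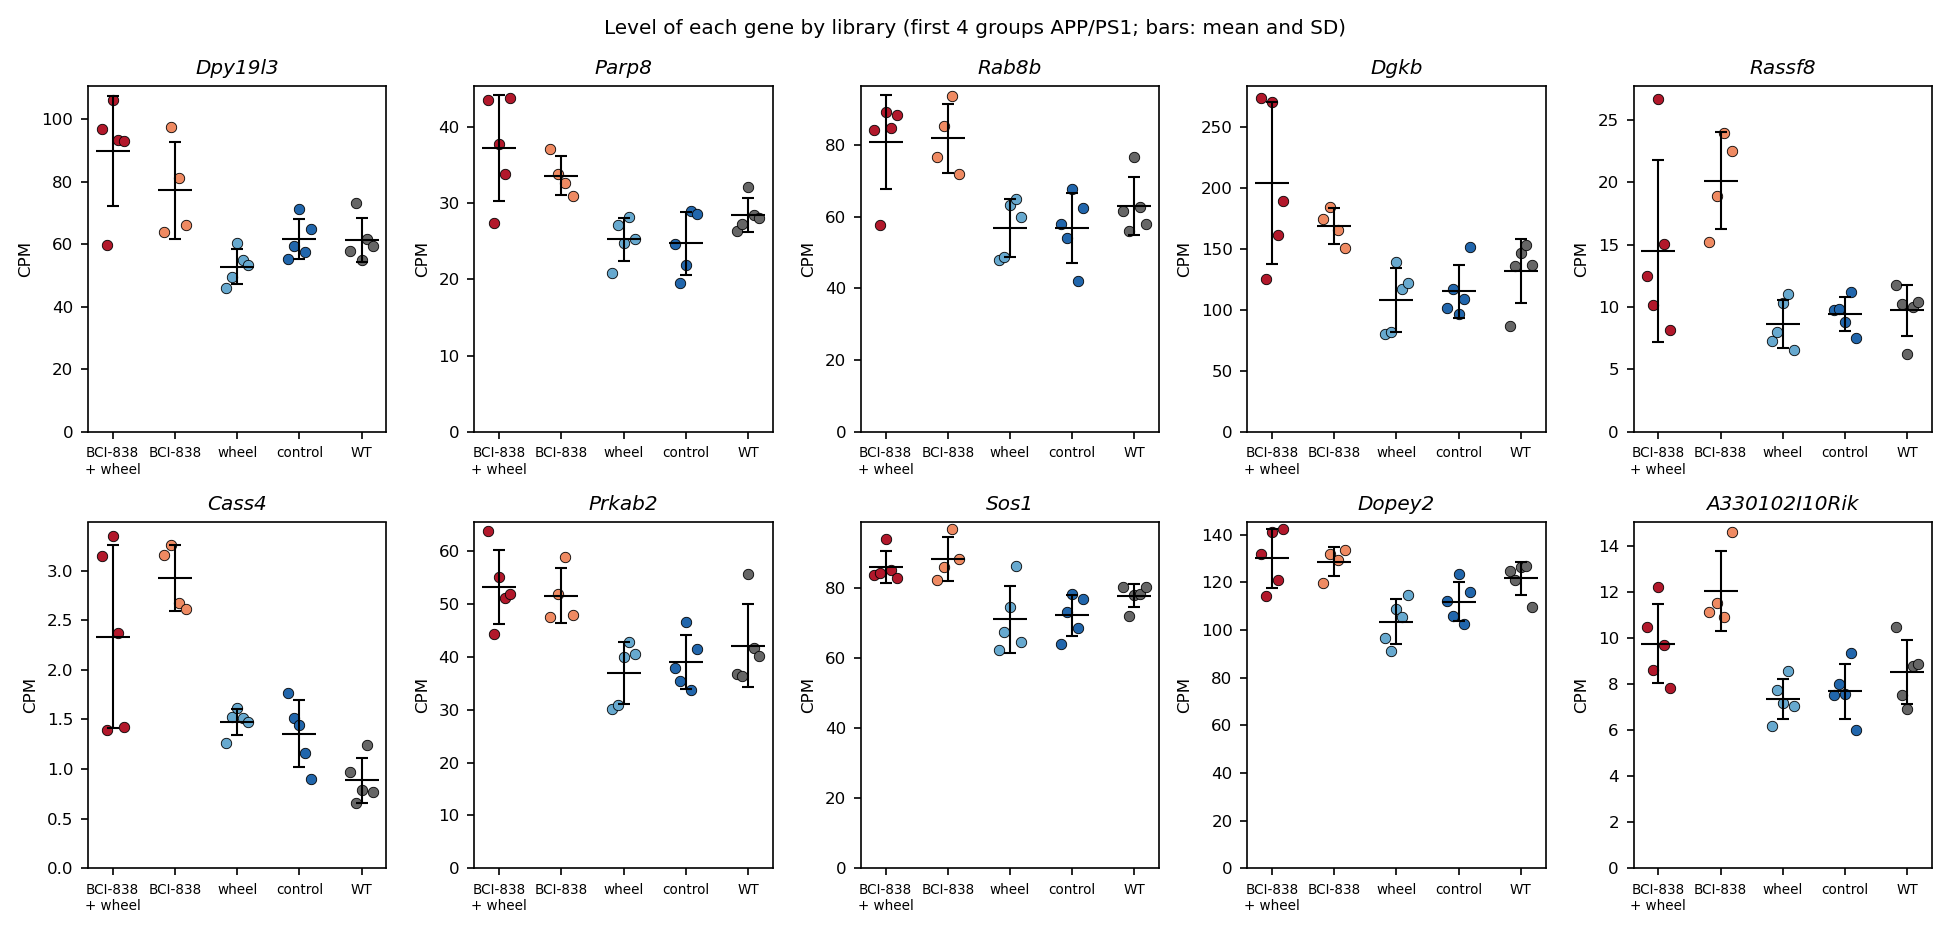
Level of the 10 genes in CPM (linear axis from 0) in each library, with the combined, BCI-838, wheel and control groups of APP/PS1 mice and WT from left to right; points are libraries, and bars give the mean and SD of 5 libraries, or 4 for BCI-838. The 2 drug groups, on which the genes were chosen, have the highest means in all 10 panels. WT is the lowest group in the Cass4 panel only.

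In the drug comparison over both wheel states, edgeR's quasi-likelihood test with Benjamini-Hochberg adjustment called 27 of 18286 genes higher, which is 0.148%, and 28 lower, which is 0.153%. All 10 genes were among those called higher, as the choice fixes, and held places 3 to 12 by p among the higher genes. Just inside that range stood Dopey2 at 0.27 ± 0.05 (log2, SE), and just outside stood the opioid peptide precursor Penk at place 2, with 2.13 ± 0.35, and the transcriptional repressor Bhlhe41 at place 13, with 0.68 ± 0.14. The number called depends on single libraries, over all genes as well as for the 10. Of all genes, 0 were called higher without BCI-838 replicate 2 or 3 or wheel replicate 1. It was 3 without control replicate 2 and 122 without control replicate 3, against 27 with all 24 libraries. The counts of members that follow are therefore not read as a result about the 10. Leaving out each library in turn, all 10 members were called in 12 of 24 cases and none in 4, without replicate 2 or 3 of BCI-838, replicate 1 of the wheel group or replicate 1 of the combined group. Without control replicates 1, 2, 4 or 5 it was 4, 1, 5 and 4 members, without BCI-838 replicate 4 it was 3, without wheel replicates 2 or 5 it was 2 and 5, and without combined replicate 3 it was 3. Without the 4 libraries rich in Ttr, 0 of all genes were called higher, so 0 members were, and the members' log2 differences were 0.21 to 1.01. With a choroid plexus covariate 0 of all genes were called higher as well, and the members stood at 0.26 to 0.89. With a dorsal midbrain covariate 57 genes were called higher, among them all 10 members, at 0.27 to 0.90. All 10 differences kept their sign under each of these settings, which the choice of the genes on these libraries favours, so nothing is read from it.

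None of the 10 had all 9 drug libraries above all 10 APP/PS1 libraries without drug, a separation seen in 2 of 18286 genes (0.0109%). Parp8, Rab8b and Prkab2 came closest, with 8 of 9 drug libraries above all others. Between BCI-838 alone and controls, 7 of the 10 were fully separated, namely Parp8, Rab8b, Rassf8, Cass4, Prkab2, Sos1 and A330102I10Rik, where 2.51% of all genes were. Between the combined and the wheel group only Prkab2 was, where 0.536% of all genes were. Since these libraries chose the genes, nothing is read from those shares. Combined replicate 2 had 3 of 10 members above the gene's median over 24 libraries, whereas each of the other 8 drug libraries had 7 to 10. The choice of the genes favours high counts in drug libraries, and the same was not counted over all genes, so this is a description only. In bulk tissue, fewer cells of a type and less RNA per cell cannot be told apart.

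The size of the drug difference in each wheel state was read separately, again as a description. In sedentary mice, Cass4 and Rassf8 had the largest differences, at 1.11 ± 0.25 and 1.09 ± 0.25 on the log2 scale, and Dopey2 the smallest, at 0.20 ± 0.08. In running mice, Dgkb and Dpy19l3 led with 0.91 ± 0.20 and 0.77 ± 0.13, and Sos1 was smallest at 0.28 ± 0.08. All 10 were positive in both states, and the same test called 0 genes in either state alone, with 3210 at an unadjusted p under 0.05 in running mice and 1863 in sedentary mice.

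The interaction, the drug difference in running mice minus that in sedentary mice, tests whether these sizes differ. It called 0 of 18286 genes (0%) by edgeR, with 1756 at an unadjusted p under 0.05 with 69 called higher and 8 lower by DESeq2. Dpy19l3 had the lowest p of the 10, with an interaction of 0.44 ± 0.19 on the log2 scale and an adjusted p of 0.480 by edgeR's quasi-likelihood test. Its 95% interval ran from 0.04 to 0.84, and with a dorsal midbrain covariate the estimate was 0.20. For Cass4 and Rassf8 the estimates were -0.45 ± 0.34 and -0.35 ± 0.35. Their intervals of -1.16 to 0.27 and -1.08 to 0.39 reached further towards a smaller drug difference in running mice than towards a larger one. Without combined replicate 3 the Rassf8 interaction was -0.68, without combined replicate 5 it was -0.18, and with a dorsal midbrain covariate it was 0.057. That of Cass4 was -0.07 without the 4 libraries rich in Ttr. Sos1 had the narrowest interval after Dopey2, from -0.25 to 0.22 around -0.02 ± 0.11.

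The wheel, averaged over drug states, called 0 genes (0%) by edgeR, with 1827 at an unadjusted p under 0.05 with 3 called higher and 4 lower by DESeq2. Across the 10 genes its log2 difference ran from -0.30 ± 0.18 for Rassf8 to 0.09 ± 0.15 for Dgkb. The lowest adjusted p by edgeR was 0.528, for A330102I10Rik at -0.18 ± 0.10. For Dopey2 and Sos1 the intervals were -0.16 to 0.06 and -0.15 to 0.09. Their drug differences of 0.27 and 0.28 chose the genes, so wheel and drug are not compared in size. For Rassf8 the interval reached -0.67, and its estimate was -0.47 without combined replicate 3 and -0.12 with the dorsal midbrain covariate.

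**Figure D2:**
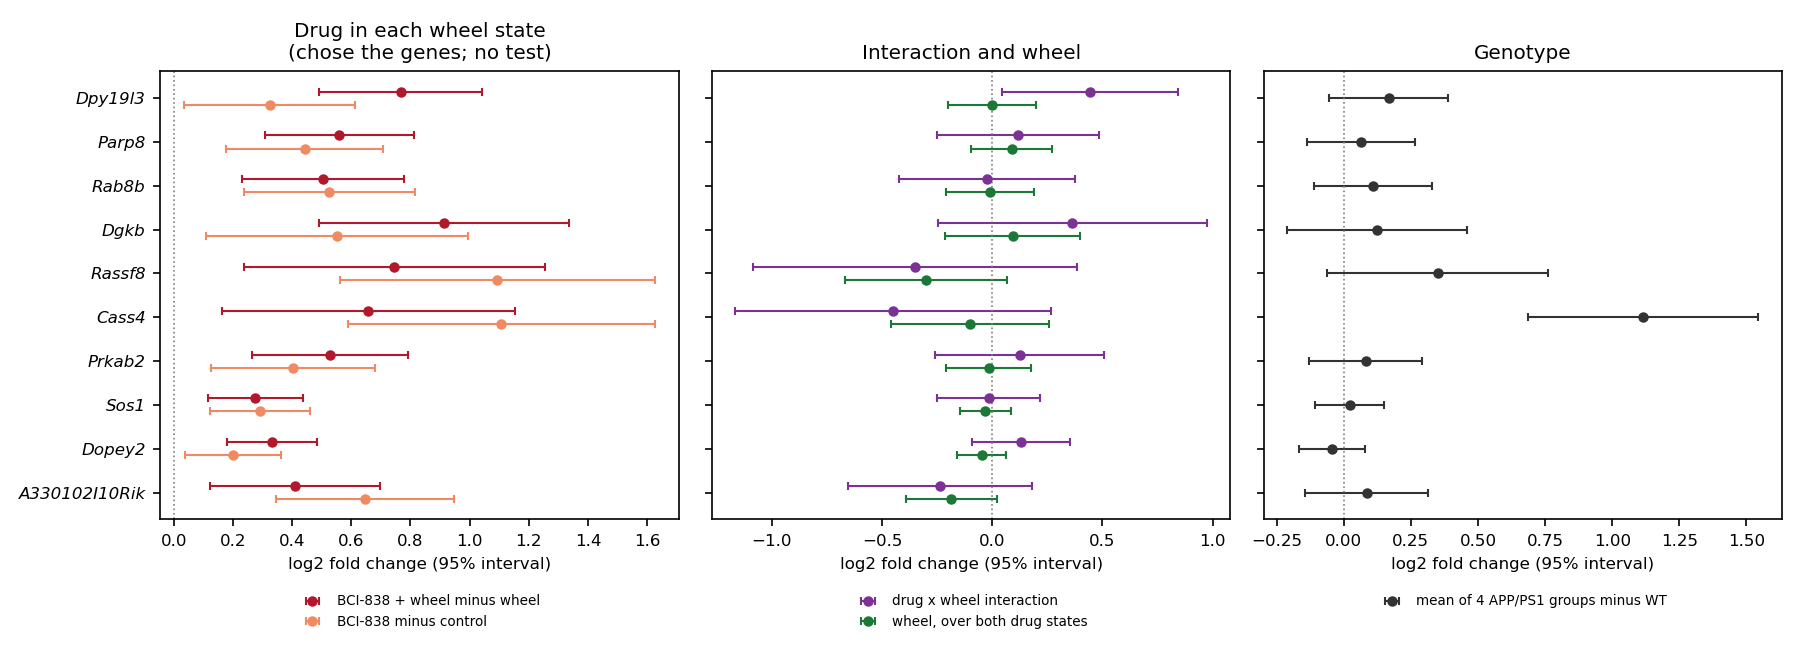
Log2 fold changes of the 10 genes with 95% intervals from the edgeR fit of 24 libraries. The left panel shows the drug difference in running and in sedentary mice, which chose the genes; the middle panel shows the interaction and the wheel, and the right panel the mean of the 4 APP/PS1 groups minus WT, where Cass4 stands at 1.12.

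The 2 drug groups had the highest means for all 10, with the combined group highest for 5 and BCI-838 highest for 5. Genes chosen as high with the drug and low without it tend to leave WT in between, so its place is a description only. WT lay below both drug groups for all 10 and above both APP/PS1 groups without drug for 8. The exceptions were Dpy19l3, where WT at 61.4 ± 6.95 CPM lay between 61.7 ± 6.46 CPM in controls and 52.8 ± 5.51 CPM with the wheel, and Cass4, where WT was lowest. Of the 40 steps between neighbouring means, 11 exceeded the larger SD of the pair. Of those, 6 lay directly below the lower drug group, in Dpy19l3, Parp8, Rab8b, Dgkb, Prkab2 and Sos1. The step in Dpy19l3 barely did, at 15.51 CPM against an SD of 15.48 CPM. The choice of the genes favours a gap at that place, and the share over all genes was not taken, so nothing is read from these 6. The other 5 were WT over the wheel group in Dpy19l3 and Parp8, controls over WT in Cass4, WT over controls in Dopey2, and BCI-838 over the combined group in A330102I10Rik. In the remaining 29 steps, which include all of Rassf8, neighbouring groups did not differ beyond their spread.

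Set beside WT without a test, the mean of the drug groups differed by 0.09 ± 0.06 for Dopey2 to 1.56 ± 0.22 for Cass4 on the log2 scale. The mean of the APP/PS1 groups without drug differed by -0.24 ± 0.17 for Dgkb to 0.67 ± 0.21 for Cass4. For Dopey2 the difference without drug was -0.18 ± 0.06, larger in size than that of its drug groups. These contrasts share their libraries with the drug comparison.

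The mean of all 4 APP/PS1 groups against WT does not depend on the drug difference and was tested. By edgeR it called 2 of 18286 genes (0.0109%), App and Prnp, with 670 at an unadjusted p under 0.05. Cass4 came nearest among the 10, at 1.12 ± 0.21 on the log2 scale, a fold of 2.17, with an adjusted p of 0.103 by edgeR's quasi-likelihood test, so it did not pass. In 17 of 19 APP/PS1 libraries its CPM exceeded that of every WT library, but these include all 9 drug libraries, on which Cass4 was chosen. The share of all genes with such a count was not taken, so nothing is read from it. Its adjusted p lay between 0.000270 and 0.498 over 34 other settings and was under 0.05 in 5 of them: with DESeq2 at 0.000270, without the 4 libraries rich in Ttr at 0.0277, with a choroid plexus covariate at 0.02999, and without combined replicate 2 at 0.0228 or replicate 5 at 0.0333. The other 9 genes lay between -0.04 ± 0.06 for Dopey2 and 0.35 ± 0.20 for Rassf8, with adjusted p-values of 1.00. Leaving out WT replicate 3, low in granule markers, moved Rassf8 to 0.22 and Prkab2 to 0.20.

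The 10 genes were then compared from mouse to mouse within groups. Group means were subtracted from log2 CPM, which removes the difference between groups, and Pearson's r was taken over 24 libraries. The 10 held places 3 to 12 by p in the drug comparison, so spread within groups can have entered their choice. The r values are therefore not free of the choice, and libraries also share depth and tissue composition, so they are a description only. Over the 45 pairs the median r was 0.33, with 39 pairs above 0 and 14 above 0.5, while over all pairs of tested genes the median was -0.001 and 5.75% exceeded 0.5. Rab8b and Prkab2, whose promoter windows are shown, had the highest r at 0.85, and Dopey2 followed Rab8b at 0.74 and Prkab2 at 0.65. Rassf8 moved with A330102I10Rik at 0.76 and with Cass4 at 0.53, and Cass4 with A330102I10Rik at 0.57. Other pairs reached similar values, among them Dpy19l3 with Rab8b at 0.61, Dgkb with Prkab2 at 0.60 and Dpy19l3 with Dgkb at 0.59. Rassf8 with Rab8b stood at 0.04 and with Prkab2 at -0.05, while Cass4 with those stood at 0.33 and 0.27. The lowest pair was Rab8b with A330102I10Rik at -0.17. Without the 4 libraries rich in Ttr the median r was 0.47, with the exon length and GC trend removed it was 0.25, and leaving out single libraries gave 0.27 to 0.40.

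**Figure D3:**
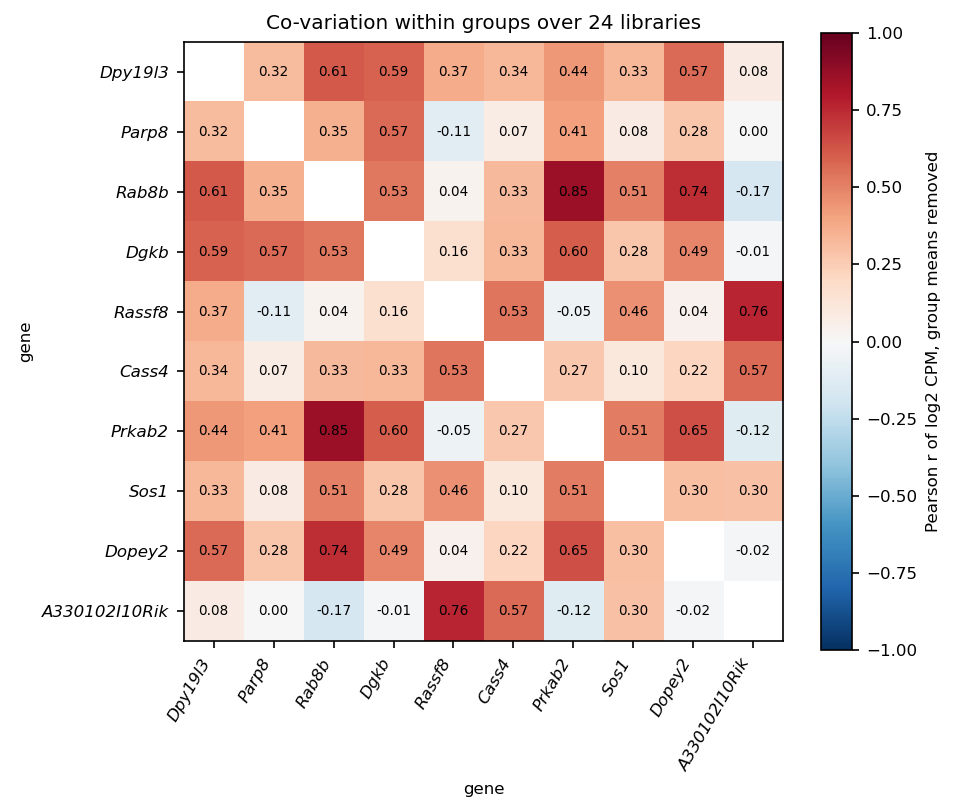
Pearson's r between each pair of the 10 genes over 24 libraries, from log2 CPM with group means removed; red is positive and blue negative on a scale from -1 to 1. Pairs among Rab8b, Prkab2 and Dopey2 stand at 0.65 to 0.85, and those among Rassf8, Cass4 and A330102I10Rik at 0.53 to 0.76. Other pairs reach similar values, among them Dpy19l3 with Rab8b at 0.61.

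Among all other named genes, those most like the mean profile of the 10 over the 24 libraries, taken with group means removed, were Gcap14 (r = 0.83), Zbtb46 (0.82), Vldlr (0.81), Zfr (0.80), Ulk2 (0.79), Ubqln2 (0.79), Fbxo38 (0.79), Napb (0.79), Gpr83 (0.78) and G3bp2 (0.77). Of these, only the G protein-coupled receptor gene Gpr83 passed the drug test, at 1.01 ± 0.22 on the log2 scale with an adjusted p of 0.0488 by edgeR. Ulk2, a kinase of autophagy and a target in the AMPK system, had 0.21 ± 0.06 with an adjusted p of 0.0861. Zbtb46 had -0.01 ± 0.12. All 40 ribosomal protein genes ran against the profile, with a median r of -0.53. In the drug comparison these 40 had a median log2 difference of -0.19, with 0 above 0, 0 called by edgeR and 35 at an unadjusted p under 0.05, against 17.96% of all genes. With the trend in exon length and GC content removed, their median was -0.11 and 38 lay below 0.

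In position, the 10 genes lie on 9 chromosomes, with Parp8 and A330102I10Rik both on chromosome 13. Rassf8 (GRCm38 chromosome 6, 145746748 to 145821079, plus strand) has Bhlhe41 as its next tested gene, 37.2 kb away on the minus strand (145858243 to 145865558). Bhlhe41 averaged 55.6 ± 17.3 CPM over the 9 drug libraries and 35.1 ± 4.19 CPM over the 10 APP/PS1 libraries without drug, and its adjusted p was 0.0331 by edgeR. With group means removed, Bhlhe41 and Rassf8 had an r of 0.86 over 24 libraries. Of the 20 nearest tested genes on either side of the 10, it was the only 1 called, against 0.148% of all genes called higher. In all, 13 of the 20 lay above 0, with a median of 0.07. After Bhlhe41 the lowest adjusted p-values were 0.123 for Rps27l next to Rab8b, at -0.25 ± 0.08, and 0.140 for Pde4dip next to Prkab2, at 0.22 ± 0.08, by edgeR.

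The 10 genes had a median span of 75.2 kb and a median exon length of 7.22 kb, against 21.9 kb and 4.04 kb over all tested genes with a gene model. Dgkb spans 817 kb, while Prkab2 spans 15.6 kb and A330102I10Rik has 1.77 kb of exon, both below the median of all genes. Over all genes the drug difference moved with exon length: its median was -0.10 in the shortest decile and 0.11 in the longest. Dpy19l3, Dgkb, Sos1 and Dopey2 fall in the longest decile. Since the 10 were chosen on this difference, their place above the median of a decile is a description only. With the trend in exon length and GC content removed from each library, 11 genes were called higher. Among them were 6 of the 10, which their choice favours, so nothing is read from that count. Sos1 then stood at 0.16 ± 0.04 in place of 0.28 ± 0.06, and the others at 0.22 to 0.90.

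**Figure D4:**
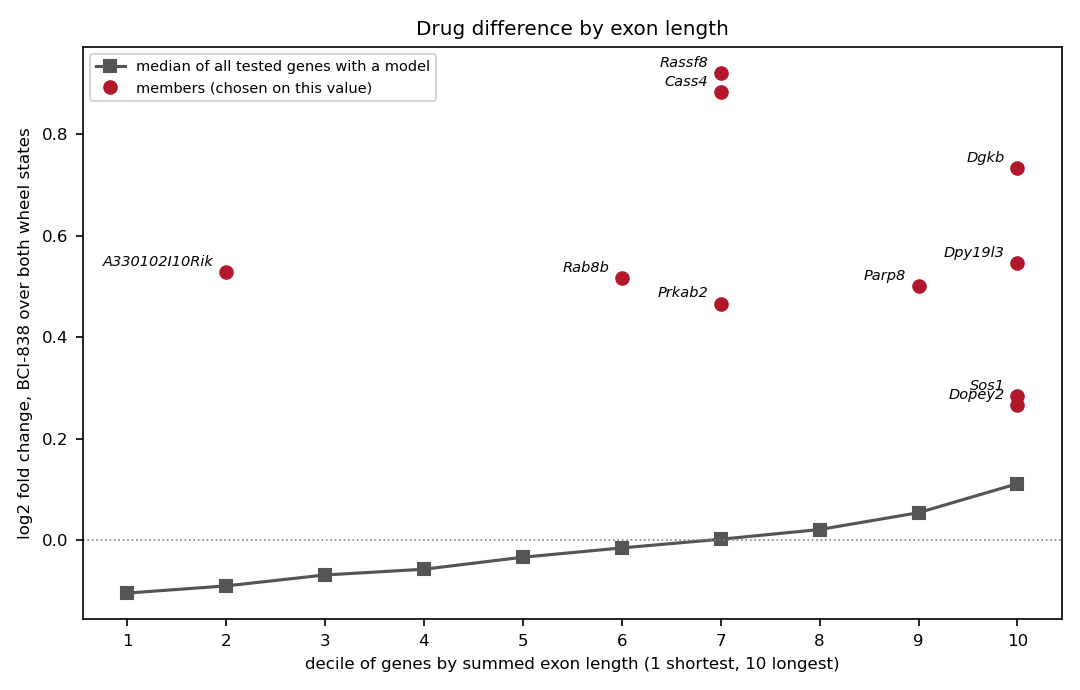
Log2 drug difference over both wheel states (vertical axis) against deciles of tested genes by summed exon length (horizontal axis, shortest to longest). Squares give the median of each decile, from -0.10 to 0.11, and circles the 10 genes; Sos1 and Dopey2 lie closest above the median of their decile.

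Per kilobase of exon, Rab8b was the most abundant at 14.2 CPM per kb averaged over 24 libraries, then Dgkb at 12.7, Dopey2 at 12.0, Prkab2 at 8.69 and Sos1 at 7.42 CPM per kb. Dpy19l3 stood at 6.003, A330102I10Rik at 5.05, Parp8 at 3.34, Rassf8 at 2.19 and Cass4 at 0.328 CPM per kb.

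The close relatives of the 10 did not pass the drug test as a family: 0 of 44 tested were called, with 22 above 0, a median log2 difference of -0.01 and 9 at an unadjusted p under 0.05. Over all 18286 genes the median was also -0.01, 46.7% lay above 0 and 3285, or 17.96%, had that unadjusted p, which is the background for each list that follows. DGK family members Dgki and Dgkg, which like Dgkb are expressed in neurons, had 0.51 ± 0.16 (adjusted p = 0.114) and 0.29 ± 0.11 (adjusted p = 0.184) by edgeR. Tnks, a tankyrase of the Parp family, had 0.33 ± 0.13, and the DNA repair enzyme Parp2 had -0.16 ± 0.06. Prkab1, the other AMPK beta subunit, had -0.16 ± 0.06, beside 0.47 ± 0.09 for Prkab2. Sos2 had 0.13 ± 0.06 and Rab8a -0.03 ± 0.05.

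In the Ras and MAP kinase list around Sos1, 0 of 52 genes were called and 32 lay above 0, with a median of 0.07 and 15 at an unadjusted p under 0.05, against 17.96% of all genes. Among those with the lowest p were the Ras exchange factors Rasgrf2, at -0.45 ± 0.13, and Rasgrp1, at 0.58 ± 0.18, and the kinase Mapk3 at -0.36 ± 0.12. Their adjusted p-values were 0.101 to 0.132 by edgeR. In the AMPK list around Prkab2, 0 of 32 were called and 19 lay above 0, with 9 at that unadjusted p. Pfkfb3, an activator of glycolysis, was nearest at 0.36 ± 0.08 with an adjusted p of 0.0519, followed by Ulk2, the fatty acid synthesis enzyme Acaca at 0.20 ± 0.06 and Tsc1 at 0.14 ± 0.05. In the diacylglycerol list around Dgkb, 0 of 39 were called and 26 lay above 0, with 4 at that unadjusted p. Plcg2, a phospholipase that makes diacylglycerol, had -0.47 ± 0.13, the calcium channel Itpr2 0.36 ± 0.11 and the vesicle-priming protein gene Unc13b 0.24 ± 0.09.

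In the list of Rab8 traffic, 0 of 37 were called by edgeR and 24 lay above 0, with 7 at an unadjusted p under 0.05, against 17.96% of all genes. They included Lrrk2, a kinase of Rab proteins, at 0.45 ± 0.15 and Rabggtb, a subunit of the Rab prenylating enzyme, at -0.15 ± 0.04. In the list of endosome to Golgi traffic around Dopey2, 0 of 16 were called, 11 lay above 0, 8 had that unadjusted p and the median was 0.12. There Snx27 had 0.20 ± 0.06, the flippase Atp8a1 0.23 ± 0.09, Mon2 0.14 ± 0.06 and the retromer subunit Vps35 0.12 ± 0.05. In the focal adhesion list around Cass4, 0 of 44 were called and 29 lay above 0, with 14 at that unadjusted p. The integrin subunits Itgav and Itgb8 had 0.51 ± 0.12 (adjusted p = 0.0532 by edgeR) and 0.75 ± 0.22, and zyxin (Zyx) had -0.30 ± 0.08.

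In the list of C-mannosylation around Dpy19l3, which holds proteins with thrombospondin-type repeats, 0 of 22 were called by edgeR and 8 lay above 0, with 3 at an unadjusted p under 0.05, against 17.96% of all genes. The netrin receptors Unc5d and Unc5c had 0.83 ± 0.20 (adjusted p = 0.0611 by edgeR) and 0.36 ± 0.14. In the ADP-ribosylation list around Parp8, 0 of 16 were called and 7 lay above 0, with 3 at that unadjusted p and with Adprhl2 at -0.21 ± 0.06 and Xrcc1 at -0.18 ± 0.06. In the Hippo and junction list around Rassf8, 0 of 23 were called and 14 lay above 0, with 5 at that unadjusted p, led by Ppp1r13b at -0.26 ± 0.11 and Ctnna2 at 0.13 ± 0.05. The drug targets did not pass the test: Grm2 had -0.46 ± 0.22 (adjusted p = 0.278 by edgeR) and Grm3 had 0.10 ± 0.13.

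Markers of cell types were set beside the 10 genes in the same comparison. Of 12 granule neuron markers, 1 was called, Calb1, which encodes the calcium buffer calbindin. It averaged 47.0 ± 23.4 CPM in the 9 drug libraries and 103 ± 31.9 CPM in the 10 APP/PS1 libraries without drug, a log2 difference of -1.18 ± 0.25 with an adjusted p of 0.0419 by edgeR. Of the 12 markers, 4 lay above 0 and 3 had an unadjusted p under 0.05; the others of these 3 were Tdo2 at -1.92 ± 0.46 (adjusted p = 0.0630 by edgeR) and the desmosome gene Dsp at -1.66 ± 0.53 (adjusted p = 0.123). Summed over the 12 markers, levels were 722 to 1810 CPM in the combined group, 1010 to 1352 CPM with BCI-838, 903 to 1785 CPM with the wheel, 574 to 2033 CPM in controls and 412 to 1905 CPM in WT. None of the lists of CA pyramidal, interneuron, astrocyte, microglia, oligodendrocyte, endothelial, choroid plexus or dorsal midbrain markers had a gene called by edgeR, while an unadjusted p under 0.05 was seen for 2 interneuron, 3 astrocyte, 1 endothelial, 6 choroid plexus and 1 dorsal midbrain marker and for 0 of the others, against 17.96% of all genes. Of 10 astrocyte markers 7 lay above 0, with a median of 0.15, and their sum ranged from 5611 to 7229 CPM in the combined group, 6241 to 6435 CPM with BCI-838, 4216 to 6501 CPM with the wheel, 4809 to 6559 CPM in controls and 5485 to 6515 CPM in WT. Of 15 choroid plexus markers 1 lay above 0. The average over wheel states joined shifts of opposite sign in some lists. The CA median was -0.63 in sedentary and 0.64 in running mice, with 4 and 1 of 13 at that unadjusted p. The choroid plexus median was -4.14 and 1.08, with 13 and 1 of 15. Of 10 dorsal midbrain markers, 8 and 0 lay above 0. Of all genes, 10.19% and 17.55% had that unadjusted p in these states. These lists thus do not show a balanced composition within a wheel state. The part of these cell types in the levels of the 10 genes was not tested beyond the covariates given above.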

How the data were processed

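Gene counts of 24 dentate gyrus libraries were deposited by the authors as whole-number read counts, 1 table for the series. The submitters' processing notes name STAR, HTSeq, DESeq and the build mm10; no source used here gives versions, annotation or strandedness. The normalised table was not used. Genes were kept with filterByExpr (minimum count 10, minimum total 15). Counts were scaled with TMM and fitted in edgeR 4.0.16 (R 4.3.3) as 1 model of group means with all 24 libraries. The quasi-likelihood F test was used with Benjamini-Hochberg adjustment over 18286 genes, and genes were called at an adjusted p under 0.05. SE is the log2 fold change over the square root of F, and intervals are 95%. CPM uses TMM-scaled library sizes; log2 CPM has a prior count of 2. DESeq2 1.42.0 and limma 3.58.1 served as alternatives, and the steps were tested on simulated data. Gene models are GENCODE (GRCm38). The members and gene lists were chosen with earlier results of these data known. Named genes are the 10 members, up to 4 of each list with the smallest p, the 10 genes most alike, App, Prnp, Grm2 and Grm3, except 1 gene that is not reported here; of the family list further relatives, and Penk, Bhlhe41 and the neighbours, were chosen after their values were seen. The exon length and GC alternative was also chosen after seeing the data.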

Additional observations from a re-analysis of the deposited data

Results flagged for a closer look

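In 50 sets of a gene and a group, 7 had a highest or lowest library standing apart from the rest of its group, and about 1 in 20 such sets would be expected to by chance. In the combined group, replicate 2 was the lowest for Dpy19l3 at 59.7 CPM and for Rab8b at 57.6 CPM, and replicate 3 was the highest for Sos1 at 93.9 CPM. In the BCI-838 group, replicate 4 was the highest for A330102I10Rik at 14.6 CPM. In WT, replicate 1 was the lowest for Dgkb at 87.1 CPM, replicate 2 the lowest for Sos1 at 72.1 CPM, and replicate 3 the highest for Prkab2 at 55.6 CPM. The last is the library with the lowest Prox1 and C1ql2. Without combined replicate 2 the log2 drug difference was 0.60 for Dpy19l3 and 0.56 for Rab8b.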

How the results depend on the processing

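The drug differences of the 10 genes kept their sign in every setting tried. Since the genes were chosen on these same libraries, nothing is read from the kept sign. The drug difference of Sos1 was 0.16 with the exon length and GC trend removed. The number of genes called varied. Over both wheel states it was 299 higher and 309 lower with DESeq2, 1156 and 1037 with limma voom, 7 and 10 with the APP/PS1 groups alone, 57 and 60 with the dorsal midbrain covariate, 11 and 14 with the length and GC trend removed, and 0 and 0 without the 4 libraries rich in Ttr or with the choroid plexus covariate; a filter of 1 CPM gave 56 lower. Of the 10, 5 were called with the APP/PS1 groups alone, 6 with the trend removed, and 0 without the Ttr-rich libraries or with the choroid covariate. Leaving out single libraries gave 0 to 394 genes higher, 0 to 489 lower and 0 to 10 members; the cause was not tested. The interaction called 69 higher and 8 lower with DESeq2. The wheel called 3 higher and 4 lower with DESeq2, 1 higher with voom, and 0 to 1 in each direction without single libraries. APP/PS1 against WT called 1 gene lower with voom, and 2 to 3 higher and 0 to 2 lower without single libraries. Cass4 in that contrast had 1.12 with DESeq2, 1.21 without the Ttr-rich libraries and 1.14 with the choroid covariate, and 1.02 to 1.27 without single libraries.

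Small uncalled differences turned sign. Without the Ttr-rich libraries the interaction was -0.036 for Parp8 and 0.090 for Rab8b, and with the choroid covariate -0.041 and 0.081. With the midbrain covariate it was -0.016 for Parp8, -0.030 for Dgkb, 0.057 for Rassf8, -0.020 for Prkab2, 0.062 for Sos1 and 0.0048 for A330102I10Rik. For Sos1 it was 0.0031 with DESeq size factors, 0.0030 with no filter, 0.0029 with DESeq2 and 0.057 with voom. The wheel difference was 0.026 for Dpy19l3, 0.0027 for Rab8b and 0.0063 for Sos1 with the trend removed, and -0.081 for Dgkb and 0.0015 for Sos1 with the midbrain covariate. Sos1 against WT was -0.0077 with voom. Without single libraries the interaction ran from -0.086 to 0.084 for Rab8b and from -0.059 to 0.072 for Sos1. The wheel difference ran from -0.043 to 0.061 for Dpy19l3, from -0.054 to 0.036 for Rab8b and from -0.057 to 0.017 for Prkab2, and Sos1 against WT from -0.0047 to 0.034.

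Replicate numbers did not pair the libraries: 10 of 46 same-number pairs correlated above 0.1, and 6 of 24 libraries matched best with their own number. With a replicate block 32 genes were called higher with the drug, among them all 10. Counts of 34 to 190 limit the precision for Cass4.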
